A study of Mus musculus with 9 samples.

Results

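Cyp26a1, Crabp1, Crabp2, Stra6 and Aldh1a2 are genes of retinoid uptake, synthesis, binding and breakdown, and they were followed in F9 cells given retinoic acid or the deacetylase inhibitor trichostatin A. F9 is a mouse embryonal carcinoma line whose cells differentiate toward endoderm in retinoic acid. The probe sets were taken by their platform gene symbol: each of the 5 genes had 1 probe set, so the set held 5 of the 12422 probe sets that were not controls. The groups were F9 cells in DMEM with retinoic acid (RA) at 0.5 µM, with trichostatin A (TSA) at 0.07 µM, or with the ethanol vehicle, for 24 h in each case and with 3 arrays per group. The same vehicle arrays served both compounds. F9 is 1 cell line. Nothing in the labels ties the replicates to separate cultures, and the p-values below therefore reflect the scatter of these 9 arrays alone, which may be technical.

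Every value is a ratio to the mean of the 3 vehicle arrays of that probe set. Signal strength is not kept in such a ratio, so levels cannot be compared between genes, and whether markers of F9 cells were expressed cannot be read from it. Changes are differences of log2(ratio + 0.05), and a gene was said to rise or fall where limma's test with Benjamini-Hochberg adjustment over all 12422 probe sets gave an adjusted p under 0.05. In cultured cells, a change in the RNA of each cell and a change in the share of cells that express a gene cannot be told apart.

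Retinol reaches cells on its serum carrier Rbp4; Stra6, a receptor at the cell surface, binds this carrier and moves the retinol into the cell. Retinol dehydrogenases oxidise it to retinaldehyde, Aldh1a2 oxidises retinaldehyde to RA, the small carriers Crabp1 and Crabp2 bind RA in the cytoplasm, and Cyp26a1, a cytochrome P450, hydroxylates RA and so begins its removal. RA acts through nuclear receptors (RAR with RXR) that bind direct repeats of a short DNA sequence. Cyp26a1, Crabp2 and Stra6 are known RA-induced genes in embryonal carcinoma cells, and the cells here were given RA itself.

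Crabp2 rose with both compounds, Cyp26a1 and Stra6 passed the test with RA, and Crabp1 and Aldh1a2 passed it with TSA. With RA, Cyp26a1, Crabp2 and Stra6 rose: 3 of 5 probe sets passed the test, against 1.36% of all probe sets, with 3 higher (0.934% of all) and 0 lower (0.427% of all). With TSA, Crabp2, Crabp1 and Aldh1a2 rose: 3 of 5 passed, against 3.48% of all, with 3 higher (2.21% of all) and 0 lower (1.27% of all). Crabp2 thus passed in both comparisons, which share the vehicle arrays. Between the treatments Cyp26a1 and Stra6 were higher in RA than in TSA and Aldh1a2 was lower: 3 of 5 passed, against 3.91% of all, with 2 higher (1.7% of all) and 1 lower (2.21% of all). The same genes that passed against vehicle were those whose 3 treated arrays all lay apart from the 3 vehicle arrays. In RA that held for 3 of 5, against 17% of all probe sets (5.93% higher, 11% lower), and in TSA for 3 of 5, against 26.3% (9.26% higher, 17.1% lower). RA and TSA arrays did not overlap for any of the 5, 3 higher and 2 lower in RA, against 27.3% of all (13.8% higher, 13.5% lower). The median log2 change of the 5 was 3.94 in RA and 1.63 in TSA, with medians of -0.12 and -0.17 over all probe sets. Centring the arrays on their medians brought these overall medians to 0.035 and 0.029. After it the RA changes were 6.10 for Cyp26a1, 5.54 for Crabp2, 4.10 for Stra6, 1.03 for Crabp1 and -0.0026 for Aldh1a2, and the TSA changes 4.30 for Crabp2, 2.27 for Crabp1, 1.83 for Aldh1a2, 1.70 for Cyp26a1 and -0.27 for Stra6, with the same genes past the test.

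**Figure D1:**
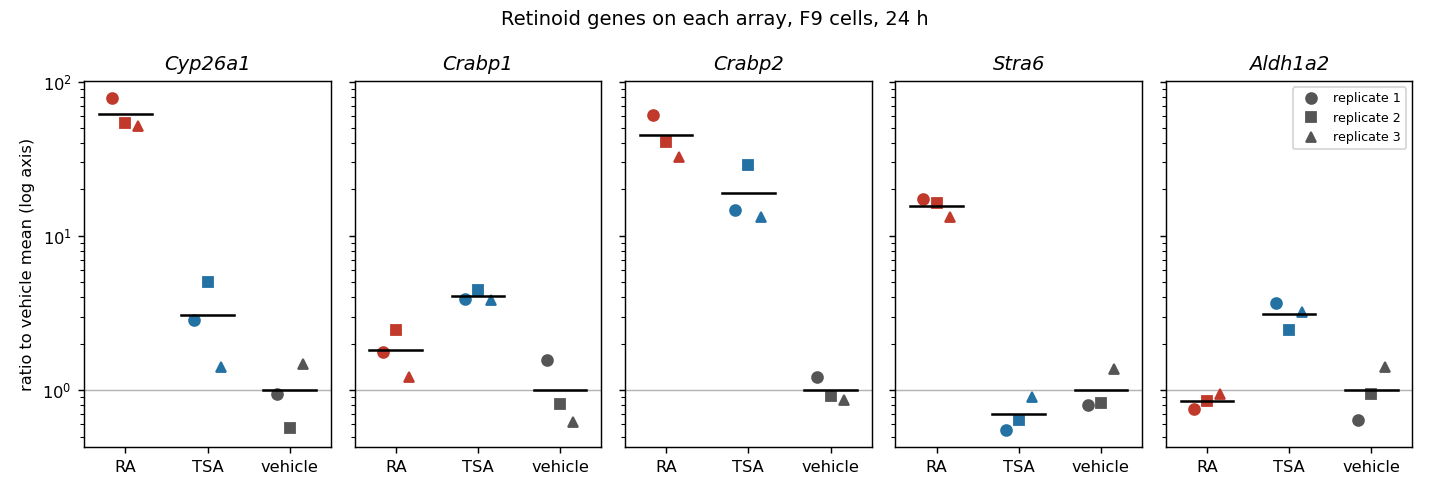
Ratio to the vehicle mean (log axis) of each gene on each array, in RA, TSA and vehicle; symbols are replicates and bars are group means, n = 3 arrays each. Cyp26a1, Crabp2 and Stra6 stand at 13.3 or more on every RA array, and Crabp1 and Aldh1a2 stand above all vehicle arrays only in TSA.

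Stra6, the retinol uptake receptor, was at 17.3, 16.4 and 13.3 times the vehicle mean on the RA arrays. It was at 0.549, 0.641 and 0.905 on the TSA arrays and at 0.800, 0.821 and 1.38 on the vehicle arrays. All RA arrays lay far above all others, while TSA and vehicle overlapped. The lowest RA array was 9.68 times the highest vehicle array and 14.7 times the highest TSA array. Its mean was 15.7 ± 2.06 in RA, 0.698 ± 0.185 in TSA and 1 ± 0.328 in vehicle (SD, n = 3 each). The log2 change was 3.94 in RA against vehicle (95% interval 3.31 to 4.57, limma adjusted p = 0.000620), the 12th largest rise of 12422. In TSA against vehicle it was -0.47 (-1.10 to 0.16, adjusted p = 0.391 by limma), which did not pass. RA exceeded TSA by 4.41 (3.78 to 5.04, limma adjusted p = 0.000217), and no probe set had a smaller adjusted p in that comparison.

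Aldh1a2, the enzyme that makes RA from retinaldehyde, was at 0.757, 0.853 and 0.941 times the vehicle mean on the RA arrays. On the TSA arrays it was at 3.65, 2.44 and 3.20, and on the vehicle arrays at 0.639, 0.949 and 1.41. The RA values lay inside the vehicle range, and the lowest TSA array was 1.73 times the highest vehicle array and 2.60 times the highest RA array. The log2 change was 1.63 in TSA against vehicle (0.96 to 2.30, limma adjusted p = 0.0234) and -0.16 in RA against vehicle (-0.83 to 0.51, limma adjusted p = 0.883). The RA interval thus includes no change and leaves room for a fall to 0.563 times or a rise to 1.42 times. RA against TSA gave -1.79 (-2.46 to -1.12, limma adjusted p = 0.0151). The TSA call was lost without vehicle replicate 2 (adjusted p = 0.0798) and without TSA replicates 1, 2 or 3 (0.0864, 0.0625 and 0.0822), and the RA against TSA call without RA replicates 1 or 2 (0.0591 and 0.0581) or TSA replicates 1 or 3 (0.0627 and 0.0592), all by limma.

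The carrier genes Crabp1 and Crabp2 encode related proteins that bind RA; Crabp2 passed the test in both treatments and Crabp1 in TSA. Crabp2 was at 61.2, 40.7 and 32.4 times the vehicle mean on the RA arrays, at 14.6, 28.9 and 13.3 on the TSA arrays, and at 1.22, 0.918 and 0.857 on the vehicle arrays. No RA or TSA array came near a vehicle array: the lowest RA array was 26.4 times and the lowest TSA array 10.9 times the highest vehicle array. Its rise was 5.38 in RA (4.57 to 6.19, limma adjusted p = 0.000620), the 3rd largest of all probe sets, and 4.10 in TSA (3.29 to 4.91, limma adjusted p = 0.00122), the 13th largest. The RA and TSA arrays were next to each other, with the lowest RA array 1.12 times the highest TSA array. That difference of 1.28 (0.47 to 2.09) did not pass (limma adjusted p = 0.0958), though it did with either kind of array weights (1.36 and 1.37, limma adjusted p of 0.0392 and 0.0424). With a variance trend both rises of Crabp2 missed the threshold (limma adjusted p of 0.163 in RA and 0.182 in TSA). That trend follows the mean log2 ratio, which a rise itself lifts, and not signal strength.

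Crabp1 was at 1.76, 2.45 and 1.22 times the vehicle mean on the RA arrays, at 3.89, 4.44 and 3.87 on the TSA arrays, and at 1.56, 0.815 and 0.623 on the vehicle arrays. All TSA arrays were above all others, the lowest of them 2.48 times the highest vehicle array and 1.58 times the highest RA array, while RA and vehicle overlapped. The TSA arrays were also close together, with a highest value 1.15 times the lowest, against 2.51 times on the vehicle arrays. The log2 change was 2.07 in TSA against vehicle (1.25 to 2.89, limma adjusted p = 0.0208) and 0.87 in RA against vehicle (0.05 to 1.69, limma adjusted p = 0.358). RA against TSA gave -1.20 (-2.02 to -0.38), which did not pass (limma adjusted p = 0.123) although the arrays did not overlap. The TSA call was lost without vehicle replicate 2 (0.0768) and without TSA replicates 1, 2 or 3 (0.0664, 0.0986 and 0.0671, limma adjusted p), and quantile normalisation gave 1.62 with an adjusted p of 0.229.

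Cyp26a1, the RA hydroxylase, had the widest range of the 5. It was at 78.8, 53.9 and 51.8 times the vehicle mean on the RA arrays, at 2.86, 4.99 and 1.42 on the TSA arrays, and at 0.949, 0.570 and 1.48 on the vehicle arrays. The lowest RA array was 35.0 times the highest vehicle array and 10.4 times the highest TSA array. TSA and vehicle overlapped, since TSA replicate 3 (1.42) lay below vehicle replicate 3 (1.48). The log2 change in RA was 5.94 (4.85 to 7.04, limma adjusted p = 0.00121), the 2nd largest rise of all probe sets, or 61.5-fold with an interval from 28.8 to 132. In TSA it was 1.50 (0.41 to 2.60, limma adjusted p = 0.136), which did not pass. RA exceeded TSA by 4.44 (3.34 to 5.54, limma adjusted p = 0.00300), the 6th largest such difference, with Stra6 as the 7th. The TSA arrays of Cyp26a1 spread more than those of 90.9% of probe sets, with an SD of 0.89 on the log2 scale against a median of 0.26. Its SD on the RA arrays was 0.33, and 53.5% of probe sets had a smaller one.

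**Figure D2:**
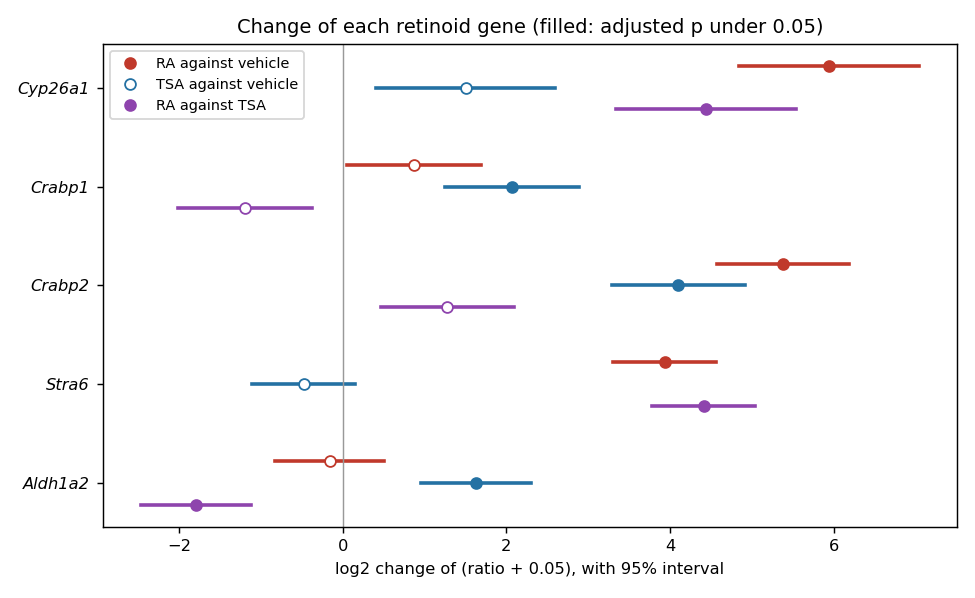
Log2 change of each gene in RA against vehicle, TSA against vehicle and RA against TSA, with 95% intervals from limma over 9 arrays; filled points had an adjusted p under 0.05. The change in RA was 5.94 for Cyp26a1, 5.38 for Crabp2 and 3.94 for Stra6, and in TSA 4.10 for Crabp2, 2.07 for Crabp1 and 1.63 for Aldh1a2.

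RefSeq promoter windows of the GRCm38.p6 build, from 250 bases before to 50 after a gene start, were at hand for 4 of the 5 genes (Crabp2 had none), and 2 are shown: the Cyp26a1 window because it alone held the receptor motif, and the Crabp1 window because it held the most GC boxes. The receptor motif was taken as any pair of units on the same strand, 5, 2 or 1 bases apart, each unit being AGGTCA or AGTTCA or GGGTCA or GGTTCA, and the GC box, bound by Sp factors, as GGGCGG; both strands were searched, and no matches overlap in the windows shown. The Cyp26a1 window (chr19:37697558-37697857, plus strand) holds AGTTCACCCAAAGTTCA, a pair with 5 bases between, on the strand opposite to the one printed and from 32 to 16 bases before the start. A pair 5 apart was found in 32 of 32851 windows, or 0.0974%. A pair 2 apart was found in 88 (0.268%) and a pair 1 apart in 73 (0.222%), and any of these would have counted. The Cyp26a1 window also has 2 GC boxes, and the Crabp1 window (chr9:54764498-54764797, plus strand) has 5. Capitals mark the matches.
Cyp26a1: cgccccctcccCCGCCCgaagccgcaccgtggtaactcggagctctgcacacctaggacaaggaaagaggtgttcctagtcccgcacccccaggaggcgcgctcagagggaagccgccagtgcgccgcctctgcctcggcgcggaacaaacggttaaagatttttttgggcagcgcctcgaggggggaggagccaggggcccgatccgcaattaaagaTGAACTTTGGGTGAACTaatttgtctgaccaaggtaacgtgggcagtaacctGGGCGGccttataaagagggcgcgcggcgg
Crabp1: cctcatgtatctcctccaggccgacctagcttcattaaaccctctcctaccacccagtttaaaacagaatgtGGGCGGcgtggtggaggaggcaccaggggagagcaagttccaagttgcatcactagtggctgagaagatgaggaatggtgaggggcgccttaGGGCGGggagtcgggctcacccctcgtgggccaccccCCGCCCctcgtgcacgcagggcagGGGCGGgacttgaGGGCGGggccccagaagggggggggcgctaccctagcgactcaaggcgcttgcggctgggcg
Of all windows 35.7% had a GC box and 2.71% had 5 or more. The 4 windows of Stra6 held 1, 1, 0 and 3 GC boxes, with an overlapping pair in the last, and the window of Aldh1a2 none, and neither gene had a receptor pair 5, 2 or 1 apart. The Aldh1a2 window was 78% G and C with 50 CpG, against medians of 52.7% and 7 over all windows. Stra6, Crabp1 and Aldh1a2 all lie on chromosome 9. A match describes letters in this window and shows no binding.

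Among the 5 genes, profiles over the 9 arrays were compared by the root mean square difference of their log2 values. Crabp1 and Aldh1a2 were nearest to each other (0.90), and the next were Cyp26a1 and Crabp2 (1.63) and Cyp26a1 and Stra6 (1.69). Crabp2 and Aldh1a2 were farthest apart (3.60), and Crabp1 and Crabp2 differed by 2.95. The median difference from named probe sets outside the set was 1.49 for Crabp1 and 1.16 for Aldh1a2. It was 3.67 for Cyp26a1, 4.09 for Crabp2 and 2.42 for Stra6, so the order of the pairs depends on the size of their changes.

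Genes outside the set were ranked by the same measure, as a description of likeness. Nearest to Stra6 were Zfp703 (0.29), Srgn (0.32) and a probe set of the endoderm factor Gata6 (0.36), against a median of 2.42 over all named probe sets. Their means were 16.6, 11.9 and 14.0 times vehicle in RA and 0.959, 0.672 and 0.634 in TSA. Nearest to Cyp26a1 was Hoxb4 (0.71), a patterning factor, whose means were 32.5 in RA and 2.65 in TSA. Spsb1 (1.30) and Calcoco2 (1.41) followed, against a median of 3.67. Crabp2 was nearest to Calcoco2 (0.74), the intermediate filament gene Prph (0.77) and the homeobox gene Cdx1 (1.12), against a median of 4.09. Prph averaged 19.9 in RA and 14.6 in TSA, and Cdx1 13.8 and 14.9. Crabp1 was nearest to Tulp1 (0.34), the lysosomal protease gene Ctsb (0.34) and Rtn1 (0.35), against a median of 1.49. Aldh1a2 was nearest to the neural adhesion gene Cntn1 (0.30), Crybg1 (0.33) and Plac8 (0.34), against a median of 1.16. The medians over all named probe sets were thus smaller for Crabp1 and Aldh1a2 than for the other 3 genes.

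**Figure D3:**
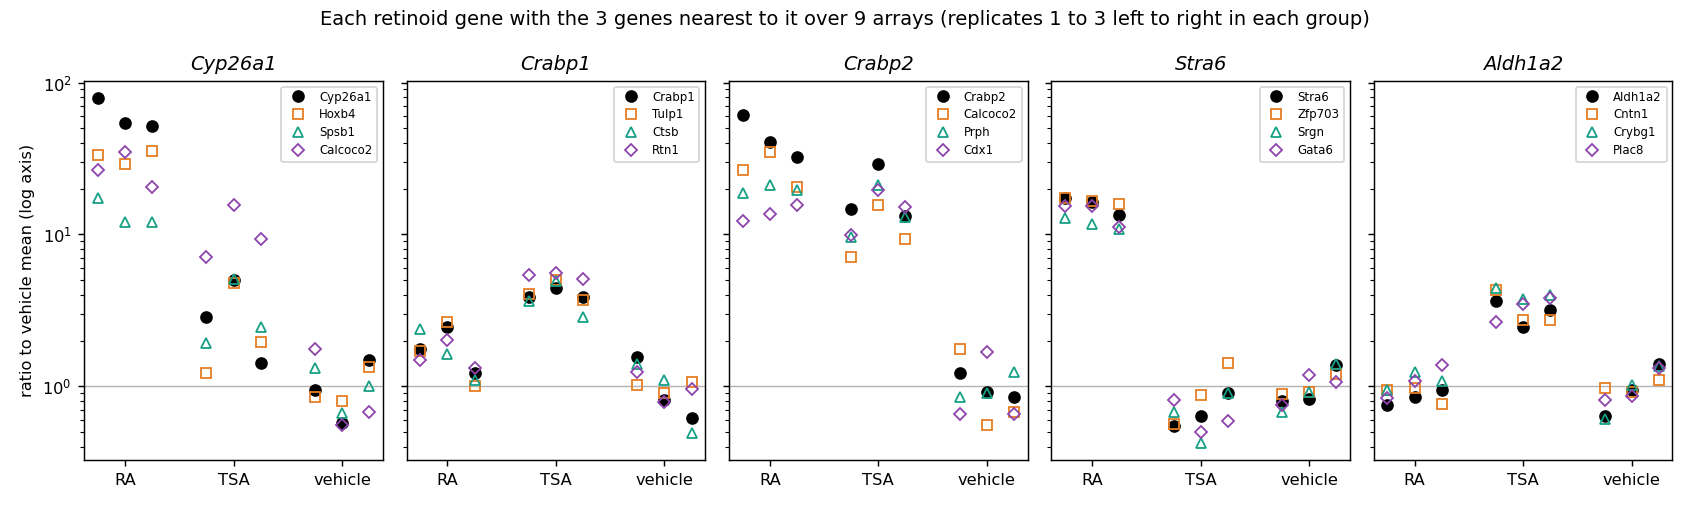
Ratio to the vehicle mean (log axis) of each retinoid gene (black) and of the 3 genes with the smallest root mean square difference from it (open symbols), on the 9 arrays, with replicates 1 to 3 from left to right in RA, TSA and vehicle. Zfp703 had the smallest root mean square difference from Stra6 (0.29 on the log2 scale over the 9 arrays), while the genes nearest to Cyp26a1 stay below it on the RA arrays.

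Other genes that handle retinoids were counted in the same way, beside the shares of all probe sets. Of 45 listed genes of uptake, transport, oxidation, reduction and storage, 27 were measured, with 36 probe sets. In RA none of the 36 passed limma's adjusted test (1.36% of all probe sets did). A limma unadjusted p under 0.05 was found for 7 (12.7% of all probe sets had one). The median log2 change of the 36 was -0.17, against -0.12 over all probe sets. In TSA 1 rose (2.21% of all probe sets rose) and 2 fell (1.27% of all fell), with a median of -0.21 against -0.17, and 7 had an unadjusted p under 0.05 (19.6% of all did). In RA against TSA 1 was higher (1.7% of all were) and none was lower, with 8 at an unadjusted p under 0.05 (17.1% of all were). Counts of 0, 3 and 1 in 36 rest on few probe sets.

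Dhrs3, which reduces retinaldehyde back to retinol, was at 3.16, 2.76 and 10.7 times the vehicle mean on the RA arrays. It was at 0.332, 0.656 and 0.551 on the TSA arrays and at 1.21, 0.636 and 1.15 on the vehicle arrays. All RA arrays lay above all others, but its rise of 2.18 (SE 0.52) did not pass in RA against vehicle (limma adjusted p = 0.105). RA exceeded TSA by 3.08 (SE 0.52, limma adjusted p = 0.0171), a call lost without TSA replicates 1, 2 or 3 (0.0661, 0.0545 and 0.0564). Without RA replicate 3, its highest RA array, the difference was 2.46 (limma adjusted p = 0.0223).

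Dhrs7, a short-chain dehydrogenase, was at 2.68, 3.28 and 3.14 on the TSA arrays and at 1.14, 0.970 and 0.891 on the vehicle arrays. It rose by 1.56 in TSA (SE 0.20, limma adjusted p = 0.00680), and this call held in 21 of 21 alternatives. In RA it was at 2.08, 1.62 and 2.08, also above every vehicle array, and its change of 0.91 did not pass (limma adjusted p = 0.0733), though it did after centring on array medians (1.07, limma adjusted p = 0.0343). The reductase genes Dhrs4 (-1.15, limma adjusted p = 0.0427) and Rdh11 (-1.42, limma adjusted p = 0.0388) fell in TSA. The other Rdh11 probe set, at -0.96, did not pass (limma adjusted p = 0.0539). Neither fall was firm: leaving out 1 array in turn, the Dhrs4 call held in 1 of 9 fits, without vehicle replicate 3, and the Rdh11 call in 2 of 9, without vehicle replicate 3 or TSA replicate 3, with adjusted p up to 0.173 and 0.155. Rbp4, the serum carrier that Stra6 recognises, was at 2.11, 6.78 and 4.59 on the RA arrays, 13.6, 15.0 and 1.96 on the TSA arrays, and 0.976, 0.585 and 1.44 on the vehicle arrays. Its arrays did not overlap with vehicle in either treatment, yet its changes of 2.05 in RA and 2.91 in TSA did not pass (limma adjusted p of 0.321 and 0.0867). Without TSA replicate 3, its lowest TSA array, the TSA change was 3.86 and passed (limma adjusted p = 0.0236). It also passed with both kinds of array weights (3.79 and 3.59, limma adjusted p of 0.00154 and 0.0152). The RA change passed with the first kind (2.76, limma adjusted p = 0.0198). Rbp4 thus passed in 3 of 21 alternatives in TSA and in 1 of 21 in RA.

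**Figure D4:**
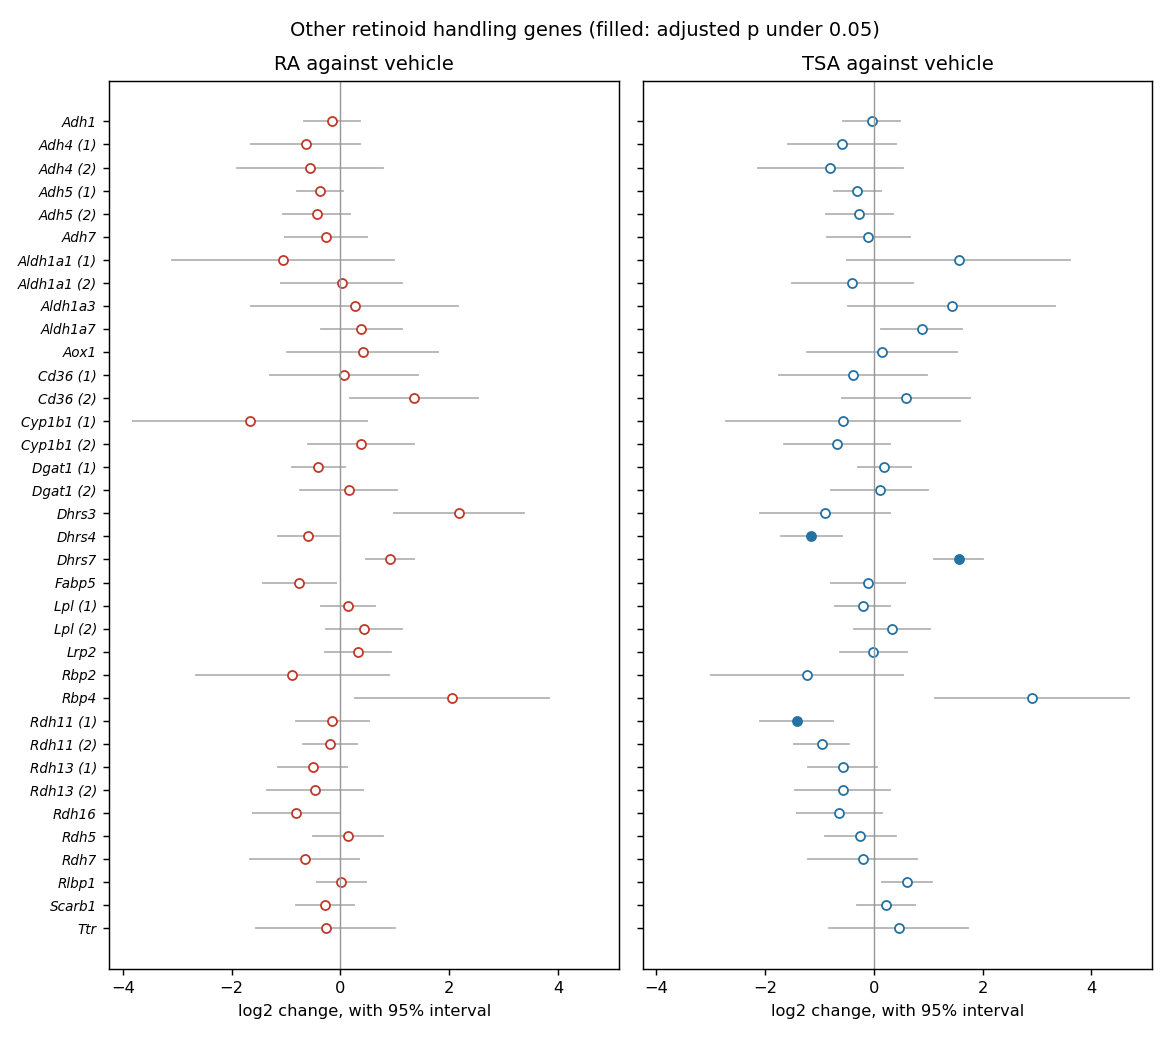
Log2 change of 36 probe sets of other retinoid handling genes in RA against vehicle (left) and TSA against vehicle (right), with 95% intervals from limma; filled points had an adjusted p under 0.05, and numbers in brackets tell apart probe sets of a gene. No point is filled in RA, and Dhrs7 (1.56), Dhrs4 (-1.15) and Rdh11 (-1.42) are filled in TSA.

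Of 6 listed retinoid receptor genes 5 were measured, with 6 probe sets, and Rarb was not measured. None of the 6 probe sets passed limma's adjusted test in RA, in TSA or in RA against TSA. Over all probe sets, 1.36%, 3.48% and 3.91% passed it. A limma unadjusted p under 0.05 was found for 1 in RA, 0 in TSA and 1 in RA against TSA. The shares of all probe sets were 12.7%, 19.6% and 17.1%. Such counts rest on few probe sets and leave Rarb out. Changes of the 6 probe sets ran from -1.77 to 0.53 in RA and from -1.22 to 0.23 in TSA. Both ends below -1 belong to Rxrg, whose vehicle arrays ran from 0.267 to 2.10.

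Of all probe sets 169 passed in RA, of which 116 rose and 53 fell (148 and 37 after centring). In TSA 274 of 432 rose and 158 fell (379 and 82 after centring), and 486 differed between RA and TSA. The median of 3 control probe sets for 18S rRNA reached 0.961 on RA replicate 3, and among vehicle arrays 2.40 on replicate 3 and 0.538 on replicate 1. It was 0.0730 or less on the other 6 arrays. The median of 18 spike-in control probe sets was 1.23 on vehicle replicate 3 and 1.03 on RA replicate 3. It was 0.822 and 0.890 on vehicle replicates 1 and 2, and from 0.413 to 0.726 on the other RA and TSA arrays. What this difference did to the ratios was not tested. On RA replicate 3, Cyp26a1, Crabp2, Stra6 and Crabp1 had their lowest RA values and Aldh1a2 its highest (0.941). On vehicle replicate 3, Cyp26a1, Stra6 and Aldh1a2 had their highest vehicle values, while Crabp1 (0.623) and Crabp2 (0.857) had their lowest. Without both arrays the RA changes were 6.37, 5.49 and 4.29 for Cyp26a1, Crabp2 and Stra6, with limma adjusted p of 0.0175, 0.0167 and 0.00844. The TSA changes were then 4.01, 1.80 and 1.90 for Crabp2, Crabp1 and Aldh1a2, with limma adjusted p of 0.0104, 0.0396 and 0.0246.

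Some markers of cell state changed as well, and their part in the results was not tested. Of 13 probe sets of the undifferentiated state 5 fell in RA (Tdgf1, Foxd3, Utf1, Zfp42 and Tcl1), against 0.427% of all, and 4 in TSA (Foxd3, Tdgf1, Utf1 and 1 of 2 for Gdf3), against 1.27% of all, and none rose. The other Gdf3 probe set was at -0.35 in TSA (limma adjusted p = 0.644). The list's mean log2 value ran from -1.10 to -1.06 on the RA arrays, from -1.15 to -0.87 on the TSA arrays and from -0.01 to 0.07 on the vehicle arrays. Of 29 endoderm probe sets 4 rose in RA (Foxa1, Plat, Sox7 and 1 of 3 for Gata6), against 0.934% of all, and 2 in TSA (Plat and Lama1), against 2.21% of all. The other Gata6 probe sets were at 1.65 and 0.38 in RA (limma adjusted p of 0.101 and 0.817). In RA 19 of the 29 were above 0, with a median of 0.20. RA arrays lay wholly above vehicle for 8 (5.93% of all probe sets) and wholly below for 3 (11% of all). Those 3 were probe sets of Thbd (-1.22), Lamc1 (-0.81) and Lamb1 (-0.42), and none of them passed the test. In TSA 11 of the 29 were above 0, with a median of -0.14, and Sox7 was at -0.87 (limma adjusted p = 0.0747). The endoderm list means ran from 0.45 to 0.58 in RA, above all vehicle arrays, and from -0.05 to 0.08 in TSA, inside the vehicle range of -0.29 to 0.29. Of 22 fibroblast and feeder probe sets none passed limma's adjusted test in RA, where 6 had an unadjusted p under 0.05 (12.7% of all did). In TSA 4 rose (Cnn1, Thy1, 1 of 2 for Col1a1 and 1 of 2 for Col5a1), against 2.21% of all, and 8 had an unadjusted p under 0.05 (19.6% of all did). The other probe sets of Col1a1 and Col5a1 were at 0.59 and 0.09 in TSA (limma adjusted p of 0.455 and 0.847). In TSA 12 of the 22 were above 0, with a median of 0.11. The lowest was a Col3a1 probe set at -1.37, and Dcn was at -0.97 (limma adjusted p of 0.461 and 0.597). That list's means were -0.14 to 0.08 in RA, inside the vehicle range of -0.48 to 0.50, and 0.42 to 0.63 in TSA, a range that holds vehicle replicate 3 (0.50). As ratios these values cannot show whether any marker was absent.

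**Figure D5:**
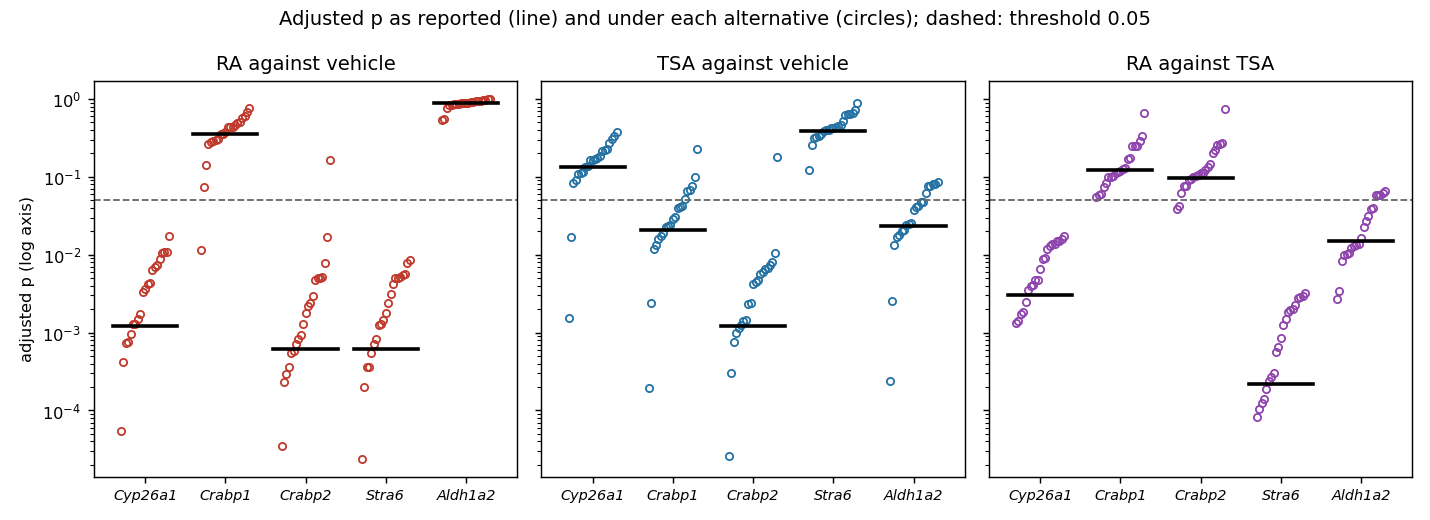
Adjusted p (log axis) of each retinoid gene in the 3 comparisons, as reported (line) and under each of 21 alternatives (circles), with the threshold of 0.05 dashed. In RA against vehicle all circles of Cyp26a1 and Stra6 lie below the threshold, while those of Crabp1 and Aldh1a2 in TSA lie on both sides of it.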

How the data were processed

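RNA of F9 cells was measured on 9 Affymetrix arrays. Per the labels, a core facility hybridised the RNA and raw data of the vehicle arrays went into GeneSpring; the sources used here do not give the later steps. The deposited values are linear ratios: the vehicle arrays averaged 1 within 1.9e-07 in each of 12488 probe sets. The 66 control probe sets were left out. The platform annotation gave 1 symbol for 10833 of the other 12422, several for 396 and none for 1193. Ratios were used without further scaling as log2(ratio + 0.05). All 3 comparisons came from a single model of the 9 arrays in limma 3.58.1 under R 4.3.3. The procedure was tested on simulated data. Precision is limited by the number of arrays.

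The members, gene lists, tests and alternatives were chosen with earlier results of these data known. Named were the 5 members, listed retinoid genes past the threshold, the 3 probe sets nearest to each member by root mean square difference, and markers past the threshold; Rbp4 and Rxrg were added after values were seen. Alternatives were pseudocounts of 0.01 and 0.1, centring, quantile normalisation, a filter on the lowest 30%, gene averages, a variance trend, array weights, 6 arrays only, a replicate block, and arrays left out. Gene-by-gene array weights were added after seeing the data.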

Additional observations from a re-analysis of the deposited data

How the results depend on the processing

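In RA against vehicle, the calls of Cyp26a1 and Stra6 held in 21 of 21 alternatives, with limma adjusted p up to 0.0175 and 0.00844, and that of Crabp2 in 20. In RA against TSA, Cyp26a1 and Stra6 held in 21 of 21 and Aldh1a2 in 16. In TSA against vehicle, Crabp2 held in 20 of 21 and Crabp1 and Aldh1a2 in 15 each. Leaving out 1 array, Crabp1 and Aldh1a2 held in 5 of 9 fits there, and Aldh1a2 in 5 of 9 in RA against TSA. Each 5 includes the fits without an array of the group not compared, where the change itself stays the same. Each count out of 21, that of Dhrs7 among them, includes the filter on the lowest 30%. That filter ranks probe sets by mean ratio over the 9 arrays, which a rise itself lifts, so it could not test the rises. With it the probe sets that fell went from 53 to 7 in RA and from 158 to 9 in TSA. The change of Aldh1a2 in RA turned from lower to higher with quantile normalisation (0.0028), without RA and vehicle replicates 3 together (0.041) and without vehicle replicate 3 (0.11), and passed in no alternative; leaving out 1 array it ran from -0.43 to 0.11. The number of the 5 genes past the test in TSA was 1 with quantile normalisation and 1 from the 6 arrays compared, and 1 to 3 leaving out 1 array. Array weights made the TSA rise of Cyp26a1 pass (2.18, limma adjusted p = 0.00156). The estimation of these weights did not converge and gave vehicle replicate 2 a weight of 21.4; gene-by-gene weights gave it 3.19, and Cyp26a1 still passed (2.00, limma adjusted p = 0.0168). Crabp1 passed in RA with array weights (1.17, limma adjusted p = 0.0117) but not with the gene-by-gene ones (1.07, 0.0738), and Crabp2 passed in RA against TSA with both. Vehicle replicate 2 was the middle vehicle array in 57.2% of probe sets.

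Of other retinoid handling probe sets, 1, 7 and 2 passed in RA after centring, with array weights and with gene-by-gene weights. In TSA 1 passed after centring, with quantile normalisation, with the 30% filter, with the variance trend and from 6 arrays. It was 12 and 7 with the weights, and 1 to 4 leaving out 1 array. The 30% filter took out Dhrs4 and the Rdh11 probe set that had passed, so their calls were not tested there. In RA against TSA it was 2 with gene averages, 3 with either weights, and 0 to 3 leaving out 1 array. Over all probe sets the RA count was 87 with quantile normalisation, 111 with the trend, 2196 and 549 with the weights, 61 from 6 arrays, 98 without RA and vehicle replicates 3, and 54 to 209 leaving out 1 array. The TSA count was 108, 4494, 1771 and 168 with quantile normalisation, array weights, gene-by-gene weights and 6 arrays, and 107 to 494 leaving out 1 array. For RA against TSA it was 152, 943 and 890 with quantile normalisation and the weights, and 167 to 624 leaving out 1 array.

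Replicate numbers recur across groups, and same-numbered deviations correlated from -0.03 to 0.29. The 3 pairs numbered 3 were at 0.19 to 0.29 and the pairs numbered 2 at -0.03 to 0.03, so not every pair was over 0.1; whether arrays numbered 3 share a batch was not tested. With the replicate block 141, 438 and 455 probe sets passed in RA, in TSA and between them, and 3 of the 5 genes passed in each, as without it; not every array correlated best with its own number. Signal over background is unknown, and a high ratio may reflect a vehicle signal near background.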
